A study of Mus musculus with 10 samples.

Results

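The Hox clusters were read for accessible chromatin in the embryonic mouse epicardium, the mesothelial sheet that covers the heart, and in the cells that leave it, called epicardium-derived cells (EPDCs). The set held 38 of 21938 protein-coding genes, 10 in the Hoxa cluster, 10 in Hoxb, 9 in Hoxc and 9 in Hoxd, and each gene was taken with 5 kb on either side. Together they covered 444.858 kb of the mm10 assembly in 10 stretches. An accessible region was a window of 501 bp around a summit, the highest point of a peak, and 148 of the 184764 such regions in these lists had their summit inside the Hox stretches. Regions were chosen by position alone and are numbered from left to right along each cluster's chromosome.

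Bulk ATAC-seq, in which a transposase cuts and tags open DNA, had been run on cells sorted from Rosa26tdTomato;Wt1CreERT2/+ embryos of the C57BL/6J strain, whose mothers received tamoxifen by oral gavage at E9.5. The Cre marks cells that express *Wt1* around that time and their descendants, so the tdTomato signal is not limited to the epicardium. CD31-tdTomato+PDPN+ cells were taken as epicardium, with 3 libraries from E11.5 hearts (6 hearts pooled for each) and 3 from E17.5 hearts (4 pooled). CD31-tdTomato+PDPN- cells were taken as EPDCs, namely 1 library of E12.5 and 2 of E13.5 (4 to 13 hearts pooled at E13.5), and one of the latter joined technical replicates. Each sort held 40000 to 50000 cells. No library of EPDCs shared a stage with the epicardium, so population and age cannot be told apart. P-values here measure the spread between pools of hearts. For EPDCs against epicardium that spread also takes in the stages pooled within each group.

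Hox genes encode homeodomain transcription factors that give cells their position along the body axis. They lie in the genome in the order in which they are used, from the anterior genes, which answer early to retinoic acid, to the posterior genes, which act in the trunk, limbs and urogenital tract. Polycomb proteins hold the unused part of a cluster closed, and cofactors of the TALE class (PBX, MEIS and PKNOX) help Hox proteins to bind DNA. The epicardium is a source of retinoic acid in the heart through *Aldh1a2*, which encodes a retinaldehyde dehydrogenase.

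Each summit was given its rank percentile by −log10 p among all summits of its library on chromosomes 1 to 19, X and Y, so that 100 is the strongest. A region took the percentile of its strongest summit and 0 where none was called. A value of 0 says that no summit passed the peak caller, not that no fragment was there, and in sorted bulk cells fewer open cells and less opening per cell cannot be told apart. A region or promoter was called different where the values of both groups did not overlap.

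Sequences are shown for the intergenic region past *Hoxb1* and the *Hoxa3* intron that lost their summits at E17.5, for the matching element in the *Hoxb3* intron, and for the *Hoxb1* intron that ranked lower in EPDCs. They were read from GRCm38.p6 (the mm10 sequence), plus strand. Hoxb region 38 is printed from chr11:96372511-96372810, intergenic with its summit 6373 bp past the start of *Hoxb1*, and Hoxa region 9 from chr6:52175397-52175696 in an intron of *Hoxa3*. Hoxb region 27 is printed from chr11:96341236-96341252, in an intron of *Hoxb3*, as the element alone. In these 3 the capitals mark a DR5 element, a direct repeat with a gap of 5 bases that retinoic acid receptors can bind. Hoxb region 37 is printed from chr11:96366628-96366927, which holds the summit in the intron of *Hoxb1* and runs on into the coding exon after it. Here the capitals mark a HOX-PBX match, TGATNNAT.
Hoxb region 38: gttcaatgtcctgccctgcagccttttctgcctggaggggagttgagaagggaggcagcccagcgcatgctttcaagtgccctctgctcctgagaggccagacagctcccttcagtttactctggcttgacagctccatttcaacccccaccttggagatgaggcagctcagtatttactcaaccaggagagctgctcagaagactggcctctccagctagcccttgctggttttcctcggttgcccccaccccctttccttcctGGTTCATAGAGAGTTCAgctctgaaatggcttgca
Hoxa region 9: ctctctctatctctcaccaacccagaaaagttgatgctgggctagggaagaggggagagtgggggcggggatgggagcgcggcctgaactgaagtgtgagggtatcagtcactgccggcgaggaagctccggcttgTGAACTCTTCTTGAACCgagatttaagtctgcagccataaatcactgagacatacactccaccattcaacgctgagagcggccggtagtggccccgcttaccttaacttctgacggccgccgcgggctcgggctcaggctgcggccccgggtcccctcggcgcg
Hoxb region 27: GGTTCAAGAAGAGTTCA
Hoxb region 37: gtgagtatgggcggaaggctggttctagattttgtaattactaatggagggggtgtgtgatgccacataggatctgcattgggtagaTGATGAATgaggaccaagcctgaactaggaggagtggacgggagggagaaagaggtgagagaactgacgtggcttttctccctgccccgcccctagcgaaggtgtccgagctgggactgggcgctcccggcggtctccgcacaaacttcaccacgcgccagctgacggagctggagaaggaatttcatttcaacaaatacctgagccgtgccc

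The DR5 element occurred in 3 of the 148 Hox regions (2.03%) and in 0.335% of all regions, both strands read. Hoxa region 9 held it on the minus strand at chr6:52175533-52175549. Read along its own strand, its 17 bases were identical to those of Hoxb region 27, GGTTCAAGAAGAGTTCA, and this run was found in 2 of all 184764 regions. The element of Hoxb region 38, at chr11:96372776-96372792, differed from it at 3 positions. The other retinoic element, DR2, searched after the data had been seen, was in 0 of the 148 regions and 0.298% of all. A match is a string of letters and not a bound site.

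The Hox regions were rich in CpG. Their median GC content was 58.3%, against 48.3% over all regions, and their median ratio of observed to expected CpG was 0.660 against 0.244. Of the 148, 85 (57.4%) had a GC content over 50% and a CpG ratio over 0.6, against 10% of all regions. Among the regions called in all 9 libraries the share was 75% (33 of 44) in the Hox clusters and 28.8% in the genome. The HOX-PBX match lay in 23 Hox regions (15.5% against 17.6% of all), the homeodomain core TAATTA in 14 (9.46% against 10.1%) and the MEIS core TGACAG in 20 (13.51% against 36.6%). The AP-1 match TGANTCA lay in 9 (6.08% against 22.8%), the WT1 motif in 7 (4.73% against 2.195%) and the CTCF core in 0 (against 2.76%). Both strands were read, and where matches to different motifs overlapped each was counted.

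The lists held 94909 to 142743 summits per library. Solved from fold enrichment and p, the genome background lay between 2.07 and 4.10 fragments in the epicardial libraries and at 4.19, 4.26 and 10.9 in the EPDC libraries, a measure of depth on which the populations did not overlap. The EPDC lists also held 252 to 268 summits on unplaced or other sequences where the epicardial lists held 0, so population and processing cannot be told apart either. Promoters of all 8 epicardial markers (*Wt1* and *Upk3b* among them) were called in all 9 libraries, as were 5 of 6 mesenchymal markers. Of the markers of other cells, 2 of 5 endothelial, 3 of 5 cardiomyocyte, 1 of 4 blood and 0 of 3 neural crest and glial promoters were called in all 9, and those of *Pecam1*, *Cdh5*, *Emcn*, *Myh6*, *Ptprc*, *Spi1*, *Gata1* and *Sox10* were among those called in none.

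Some marker promoters moved with the groups. *Upk3b*, a mesothelial membrane gene, stood at 73.6, 22.8 and 46.1 in EPDCs, against 97.0 to 99.2 in the epicardium. Of the 8 epicardial markers, *Upk3b*, *Aldh1a2* and *Krt19* were lower in EPDCs and none higher, and between stages 2 were higher at E17.5 and 2 lower. The mesenchymal markers did not move one way. *Postn*, a matrix gene of mesenchyme, was at 0 in all E11.5 libraries, at 44.6, 50.2 and 43.5 at E17.5 and at 71.7, 78.9 and 81.8 in EPDCs. *Dcn*, another matrix gene, was lower in both comparisons, at 87.8 ± 1.33 in EPDCs (SD, n = 3) against 93.7 ± 3.37 in the epicardium (n = 6). Of the 6, 3 were higher and 1 lower at E17.5, and 1 was higher and 1 lower in EPDCs. The cardiomyocyte markers did not either. *Tnnt2* and *Actn2*, of the sarcomere, stood at 85.5 to 89.7 and 91.5 to 94.5 in the E11.5 libraries, against 59.9 to 66.0 and 77.8 to 85.2 in the E17.5 libraries. In EPDCs they had 78.0 to 83.6 and 90.03 to 91.1, within the epicardial range. *Myh7*, a myosin heavy chain gene, went the other way between stages, with 31.1, 22.7 and 26.1 at E11.5, 31.6, 47.5 and 59.8 at E17.5, and 0 in all EPDC libraries. *Nkx2-5* overlapped in both comparisons. Of the endothelial markers *Kdr*, a VEGF receptor gene, was higher in EPDCs, at 90.7, 92.7 and 93.2 against 88.1 to 89.6 in the epicardium. Of the blood markers *Tal1* was higher at E17.5, with 74.6, 79.1 and 78.2 against 63.1, 58.7 and 60.4 at E11.5. The part of these markers in the Hox differences was not tested.

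The Hox clusters carried many summits, most of them weak. The E11.5 libraries had 113, 116 and 119 summits there, the E17.5 libraries 72, 119 and 98, and the EPDC libraries 91, 103 and 134. The lowest count, in E17.5 replicate 1, came with the lowest genome background (2.07 fragments). Per 10 kb this was 2.61 ± 0.0674 summits at E11.5, 2.17 ± 0.529 at E17.5 and 2.46 ± 0.499 in EPDCs (SD, n = 3), against 0.739, 0.641 and 0.626 over all protein-coding genes with the same flanks. In every library the Hox density was above the coding density. Between 47.1% and 60.4% of the Hox summits of a library lay within 5 kb of more than 1 Hox gene.

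**Figure D1:**
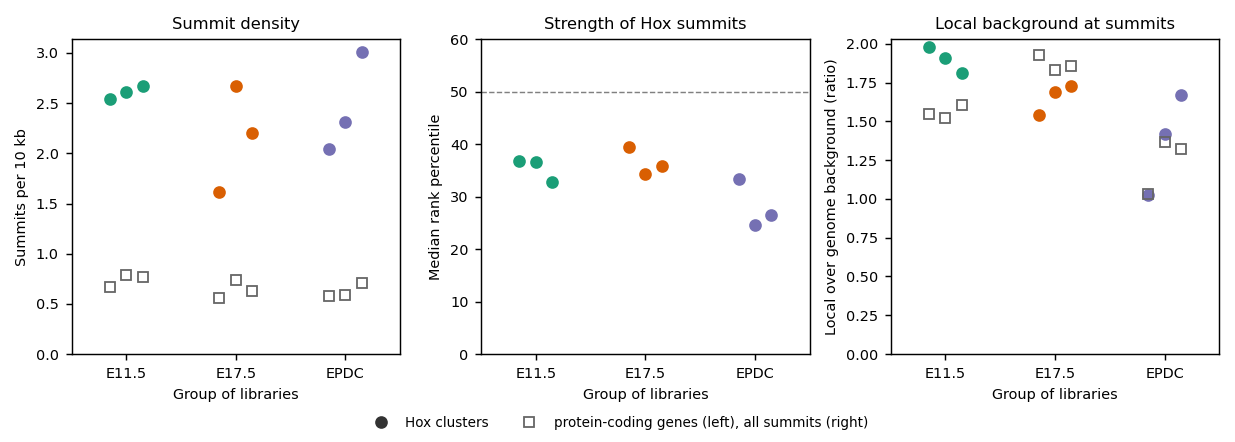
Each point is a library, in the groups E11.5 epicardium, E17.5 epicardium and EPDC. Left, summits per 10 kb in the Hox stretches (filled) and over protein-coding genes (open). Middle, median rank percentile of Hox summits, with a dashed line at 50, the median of any list. Right, local over genome background at Hox summits (filled) and at all summits (open). The Hox density exceeds the coding density in all 9 libraries, and every median percentile is below 50.

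The share of a library's summits that fell in the Hox clusters did not separate the groups. Per 10000 summits it stood at 8.74 ± 0.676 in the E11.5 libraries and 8.67 ± 0.943 in the E17.5 libraries, −0.0709 apart (two-sided exact permutation p = 0.9, adjusted 0.9 over 12 measures, where 3 against 3 cannot go below 0.10). EPDCs had 9.55 ± 0.622 against 8.71 ± 0.735 in all 6 epicardial libraries (exact permutation p = 0.143, adjusted 0.286). The stage difference was small beside the spread and the EPDC difference did not pass the test, and both turned sign when equal numbers of top summits were taken from each list (0.527 and −0.123). The stage difference also turned positive without E11.5 replicate 1 (0.291) and without E17.5 replicate 1 (0.471).

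Hox summits ranked low in all libraries, with the lowest mean in EPDCs. The median percentile was 35.4 ± 2.30 at E11.5, 36.6 ± 2.67 at E17.5 and 28.2 ± 4.54 in EPDCs (EPDC against epicardium, exact permutation p = 0.0238, adjusted 0.0571). The populations overlapped on this median, since EPDC E12.5 sample 1 had 33.3 and E11.5 replicate 3 had 32.7. The share of Hox summits at or below percentile 25 of their list, a measure chosen after the data had been seen, was 47.0 ± 3.87% in EPDCs and 35.8 ± 4.64% in epicardium (exact permutation p = 0.0119, adjusted 0.0476), and the groups did not overlap. The call was lost with a stricter threshold (difference 3.92, p = 0.131), with equal numbers of summits (2.47, p = 0.464) and without EPDC E13.5 sample 1 (9.54, p = 0.0714), all by exact permutation. The genome background moved with it, as given above, and its part was not tested.

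Of the 148 regions, 36 had their summit in coding sequence, 15 in a UTR, 6 in other exons of coding genes, 47 in introns, 12 in exons and 7 in introns of noncoding genes, and 25 between genes. A start of a Hox gene lay within 500 bp of 53 of them. Summits were called in all 9 libraries in 44 regions (29.7%, against 24.7% of all regions), 20 near a start and 24 away from one. These 44 were 9 of the 43 regions of Hoxa, 15 of 38 in Hoxb, 10 of 33 in Hoxc and 10 of 34 in Hoxd. Another 26 (17.6%, against 16.6%) were called in 1 library, and 10 of those in EPDC E13.5 sample 2, the library of highest background. No region had a mean percentile over 90, and 1 passed 90 in any library.

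**Figure D2:**
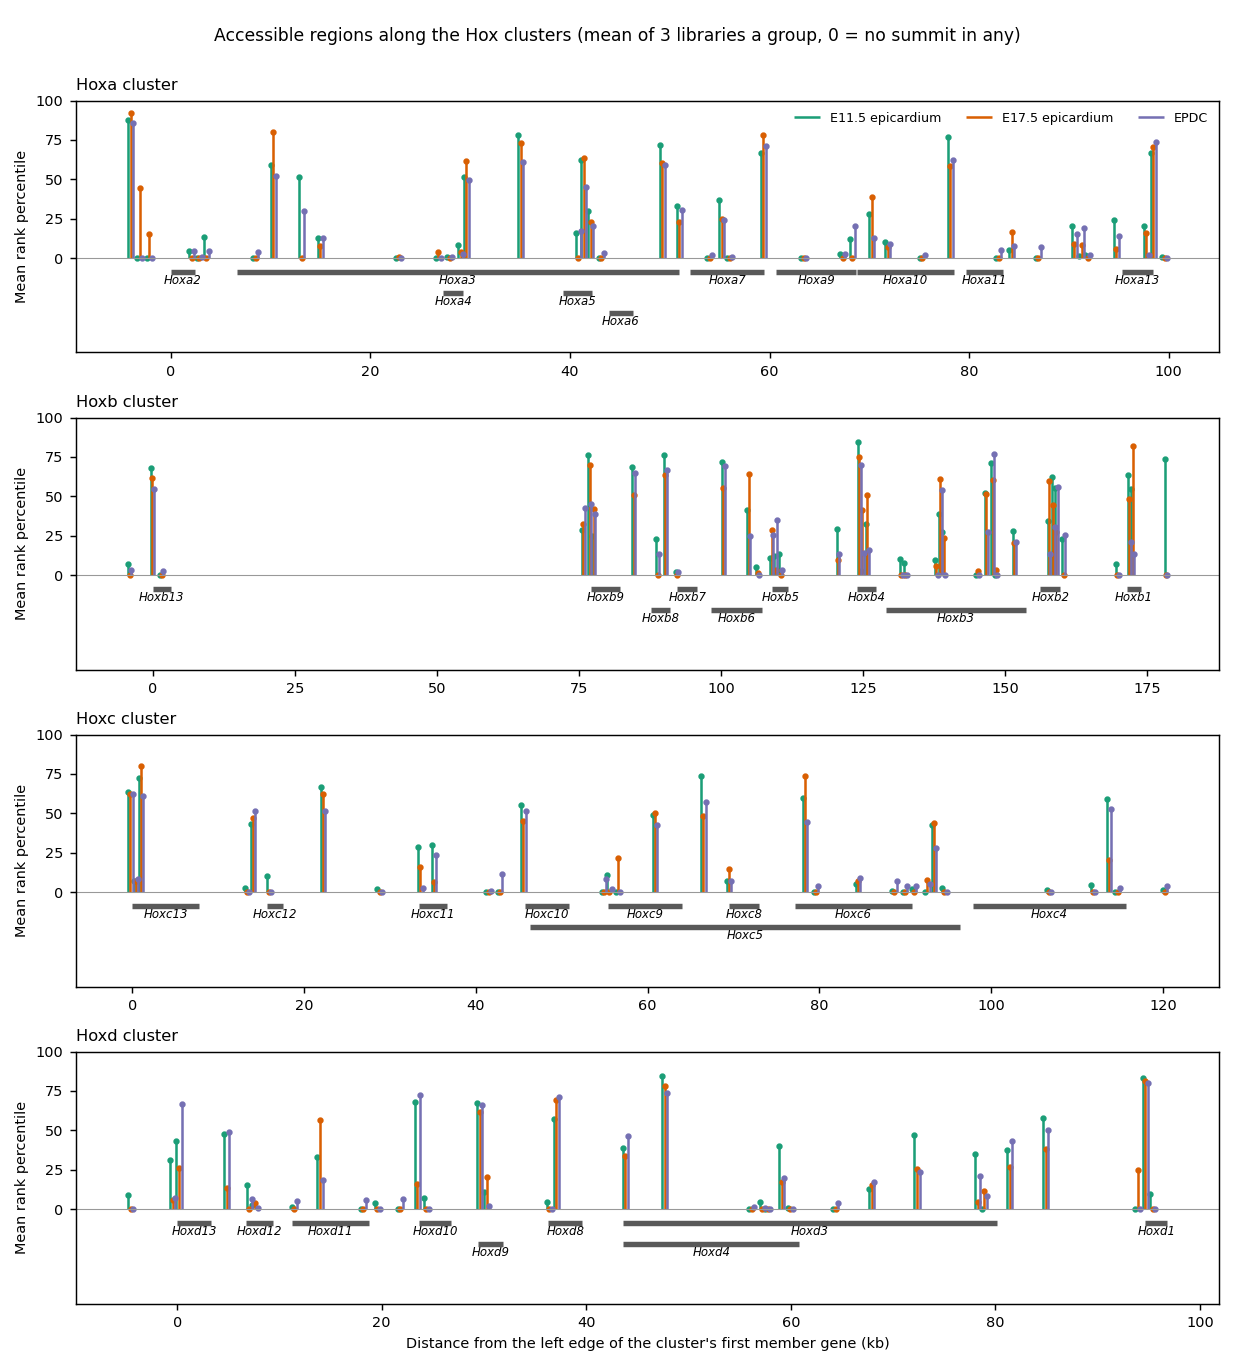
Mean rank percentile of each accessible region (3 libraries a group, 0 where no summit was called) against its distance in kb from the left edge of the cluster's first Hox gene, with the extent of each gene drawn under the axis. Strong regions stand at the edges of Hoxa and Hoxd, at Hoxa region 1 and at the Hoxd1 start, while long stretches such as that from Hoxc5 to Hoxc4 have no summit in any library. Sequence over 5 kb from a Hox gene, as between Hoxb13 and Hoxb9, was not read.

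The strongest region of each cluster was called in every library. In Hoxa it was region 1 (summit chr6:52158412), in an exon of *Hotairm1*, a long noncoding RNA at the anterior end of the cluster, 6419 bp past the start of *Hoxa2*. Its percentiles were 89.1, 86.5 and 87.8 at E11.5, 89.9, 94.4 and 92.0 at E17.5, and 84.9, 84.7 and 88.5 in EPDCs. All E17.5 values were above all others there. In Hoxb it was region 18, in the UTR of *Hoxb4*, 416 bp past its start, with 81.7, 85.2 and 86.5 at E11.5, 73.0, 80.4 and 70.9 at E17.5, and 73.0, 59.2 and 77.9 in EPDCs. The E11.5 values lay above the rest.

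In Hoxc the strongest region was region 3 (summit chr15:102922092), in the intron of *Hoxc13*, a gene known for its part in hair and nails. It stood at 70.4, 75.2 and 72.1 at E11.5, at 76.2, 81.3 and 81.9 at E17.5, and at 59.3, 54.2 and 69.1 in EPDCs. The groups were in separate ranges, E17.5 at the top and EPDCs at the bottom. In Hoxd it was region 33, 4 bp past the start of *Hoxd1*, with 86.9, 84.8 and 78.5 at E11.5, 79.3, 82.6 and 81.5 at E17.5, and 81.3, 74.3 and 84.4 in EPDCs. Here all groups overlapped.

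Closed stretches lay between the open ones. The longest run of each cluster's stretches without a summit in any library was 7.84 kb in Hoxa (chr6:52177422-52185259, inside *Hoxa3*), 7.79 kb in Hoxb (chr11:96286923-96294710, from *Hoxb7* to *Hoxb6*), 12.4 kb in Hoxc (chr15:102922102-102934464, from the *Hoxc13* intron onwards) and 8.50 kb in Hoxd (chr2:74715996-74724499, across the long transcripts of *Hoxd3* and *Hoxd4*). Hoxc held another of 11.8 kb, from *Hoxc5* to *Hoxc4* (chr15:103015659-103027476).

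The 5 kb limit cut through open chromatin. Just inside it, 4782 bp from *Hoxd3*, a region in *Haglr* was called in all 9 libraries at 34.9 to 59.4. Just outside it, 5662 bp from *Hoxb5*, a summit at 70.6 to 89.2 was also called in all 9.

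Promoters, read within 500 bp of any annotated start, ranked lower than those of other genes. Of the 38 Hox promoters 20 (52.6%) were called in all 9 libraries, against 62.5% of all protein-coding promoters. The direction of this difference in shares turned with 1 kb on each side of a start (25 of 38, against 64.8%) and by interval overlap, where the whole peak and not its summit had to touch the promoter (25 of 38, against 64.4%). Only 1 was called in no library, against 6149 of the 21938 protein-coding promoters. The median over Hox promoters of the mean percentile was 42.4, against 80.8 over all protein-coding promoters, those at 0 included. Among those called in all 9 the medians were 52.6 and 92.1. The strongest Hox promoter was that of *Hoxd1* at 81.5.

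By role along the axis, the 7 anterior genes (paralogue groups 1 to 3) had a median of 40.3 with 4 called in all 9, the 15 central genes (groups 4 to 8) 26.9 with 7, and the 16 posterior genes (groups 9 to 13) 50.8 with 9. By cluster the medians were 26.8 in Hoxa, 43.4 in Hoxb, 13.0 in Hoxc and 51.1 in Hoxd. *Hoxa6* was called in no library, *Hoxc12* in 2, and *Hoxa11*, *Hoxb7*, *Hoxb8* and *Hoxc6* in 3. *Hoxa2* was called in 4, *Hoxc5* and *Hoxd12* in 5, *Hoxa9* in 6, *Hoxc9* and *Hoxc11* in 7, and *Hoxa3*, *Hoxa5*, *Hoxb2*, *Hoxb4*, *Hoxb5* and *Hoxd10* in 8. The *Hoxb4* promoter lacked a call in EPDC E13.5 sample 1, where Hoxb region 18, which reaches past the 500 bp limit, stood at 59.2. Long transcripts give *Hoxa3*, *Hoxc5*, *Hoxd3* and *Hoxd4* starts beside a neighbour, so the values of such neighbours are not independent.

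The other 20 promoters were called in every library. In Hoxa they were *Hoxa4* (54.2), *Hoxa7* (71.8), *Hoxa10* (65.9) and *Hoxa13* (70.2), as mean percentiles over the 9 libraries. In Hoxb they were *Hoxb1* (44.3), *Hoxb3* (43.5), *Hoxb6* (43.4), *Hoxb9* (63.8) and *Hoxb13* (61.3), and in Hoxc *Hoxc4* (44.1), *Hoxc8* (13.0), *Hoxc10* (50.6) and *Hoxc13* (62.8). In Hoxd they were *Hoxd1*, *Hoxd3* (40.3), *Hoxd4* (41.9), *Hoxd8* (65.7), *Hoxd9* (65.0), *Hoxd11* (42.8) and *Hoxd13* (51.1). *Hoxc8* was the weakest promoter that every library called. Some of these summits lie at other annotated starts of the gene. At the single start nearest the coding sequence, an alternative chosen after seeing the data, 15 promoters and not 20 were called in every library. There *Hoxa10*, *Hoxb3* and *Hoxd3*, called in 9 libraries over all starts, and *Hoxa3*, called in 8, were called in none. Other genes were not read at a single start, so the 15 has no share of all promoters beside it.

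**Figure D3:**
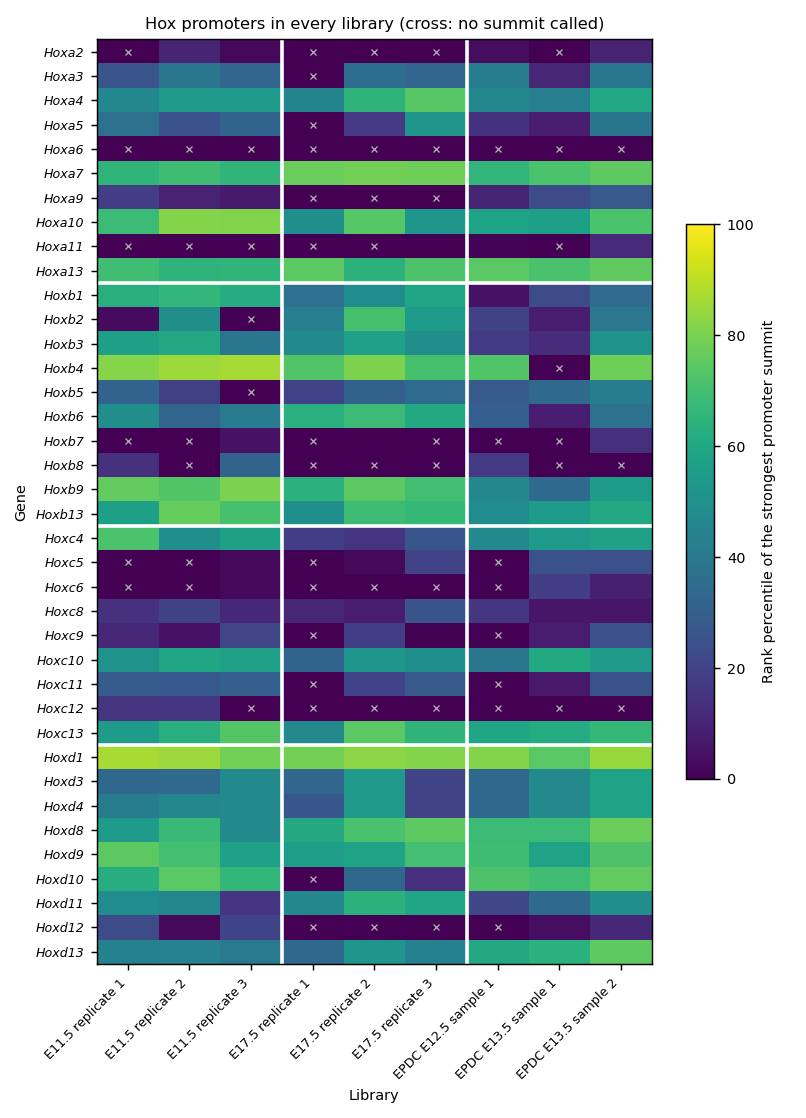
Rank percentile of the strongest summit within 500 bp of a start of each of the 38 Hox genes (rows, by cluster) in each of the 9 libraries (columns), from 0 to 100 by colour, with a cross where none was called. Hoxa6 is crossed in all columns, and Hoxd1 is bright in all, between 74.3 and 86.9.

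The comparison of E17.5 with E11.5 epicardium asked how the clusters differed between an epicardium that still releases cells and a late one. Fewer Hox regions were stronger at E17.5 than weaker. Of the 129 regions called in either stage 11 were higher at E17.5 with no overlap (8.53%, against 12.6% of all regions tested) and 26 lower (20.2%, against 31.5%). The lower ones were 4 of 35 in Hoxa, 12 of 37 in Hoxb, 3 of 27 in Hoxc and 7 of 30 in Hoxd, and the higher ones 4, 5, 2 and 0. Without E17.5 replicate 1, the shallowest library, 23 were higher, against 19.4% of all regions. With equal numbers of summits the split was 17 higher and 5 lower, against 21.3% and 24.6% of all regions. Ranked by fold enrichment it was 16 and 17 (against 13.6% and 28.3%), and on the depth-normalized score 16 and 22 (against 17.7% and 28.1%). Which direction was the more frequent among Hox regions thus depended on the scaling. No call passed a test: 3 against 3 allows no p below 0.10 by exact permutation, and the lowest adjusted p was 0.226. The count at an unadjusted p under 0.05 was therefore 0 for the Hox regions and for all regions.

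**Figure D4:**
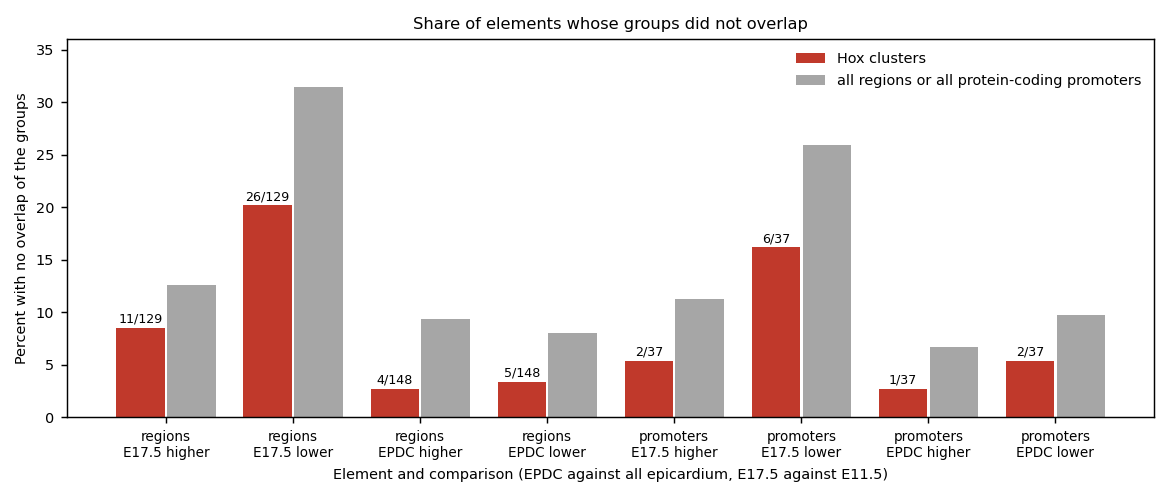
Percent of elements whose groups did not overlap, for Hox elements (red, with counts) and for all regions or all protein-coding promoters (grey), in each comparison and direction. All 8 Hox bars are below the grey bar beside them, from 2.70 against 9.36 percent for regions higher in EPDCs to 20.2 against 31.5 percent for regions lower at E17.5.

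Summits that all 3 E11.5 libraries called and no E17.5 library did were in 8 Hox regions (6.2%, against 12.0% of all). The reverse held for 1 (0.775%, against 5.06%). The 8 were Hoxa regions 9 and 29, Hoxb regions 8, 16, 21, 34 and 38, and Hoxd region 5. Of these, Hoxb regions 21 and 38 were called in no EPDC library either (2 of 148, 1.35%, against 3.75% of all regions), and the 1 gained at E17.5, Hoxa region 2, was found in no other library (against 2.98%).

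Hoxb region 38, past *Hoxb1*, a gene of hindbrain and second heart field patterning, showed the largest difference of all Hox regions. Its percentiles were 70.5, 76.0 and 73.7 at E11.5, from 54, 63 and 53 fragments at the summit, and 0 in the 3 E17.5 and the 3 EPDC libraries. The smallest Hox summits called in the E17.5 libraries had 10, 12 and 13 fragments. The difference was −73.4 (exact permutation p = 0.1, adjusted 0.226), and it kept its direction and its lack of overlap under each alternative tried.

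Hoxa region 9, in the intron of *Hoxa3*, a gene of pharyngeal arch organs, had 46.7, 57.2 and 49.8 at E11.5 from 49, 55 and 44 fragments, and 0 in all E17.5 libraries. In EPDCs it had 34.1, 15.1 and 40.8. Its summit was thus missing at E17.5 alone. The third DR5 region, Hoxb region 27 near a *Hoxb3* start, was called in all 9 libraries, at 56.7, 60.2 and 39.2 at E11.5, 47.4, 57.1 and 49.6 at E17.5, and 17.1, 12.6 and 51.3 in EPDCs. These groups overlapped.

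Near the start of *Hoxd10*, a posterior gene of limb and lumbar spinal cord, Hoxd region 12 had 62.2, 74.6 and 66.4 at E11.5, 0, 33.6 and 13.9 at E17.5, and 71.9, 69.2 and 76.1 in EPDCs. The E17.5 libraries were the low ones (difference −51.9 between stages, exact permutation p = 0.1, adjusted 0.226). Hoxc region 31, 432 bp past the *Hoxc4* start in coding sequence, had the same shape. It stood at 71.6, 49.7 and 56.7 at E11.5, 18.5, 15.03 and 26.8 at E17.5, and 47.3, 54.1 and 57.1 in EPDCs.

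Among regions higher at E17.5, Hoxa region 2 lay in an intron of *Hotairm1* (summit chr6:52159321). It had no summit at E11.5 or in EPDCs and stood at 42.7, 47.4 and 43.8 at E17.5, from 59, 102 and 88 fragments. Its neighbour on the left is the strongest Hoxa region. Hoxb region 37, in the *Hoxb1* intron 520 bp past its start, stood at 48.1, 59.0 and 56.1 at E11.5, at 78.7, 84.6 and 82.6 at E17.5, and at 0, 11.6 and 28.3 in EPDCs. All 3 groups were apart, with E17.5 at the top.

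Also higher at E17.5 were Hoxb regions 19 and 31. Region 19, in *Hoxb4* coding sequence, had 7.94, 0 and 0 at E11.5, 24.3, 63.1 and 36.8 at E17.5 and 0, 42.0 and 0 in EPDCs. Region 31, 411 bp past the start of *Hoxb2*, had 28.8, 29.8 and 43.3, then 53.4, 70.8 and 54.9, and 14.4, 3.797 and 22.3 in EPDCs. Both stage directions turned when the whole peak interval and not the summit had to touch the region and took its strongest summit (−10.4 and −2.41).

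**Figure D5:**
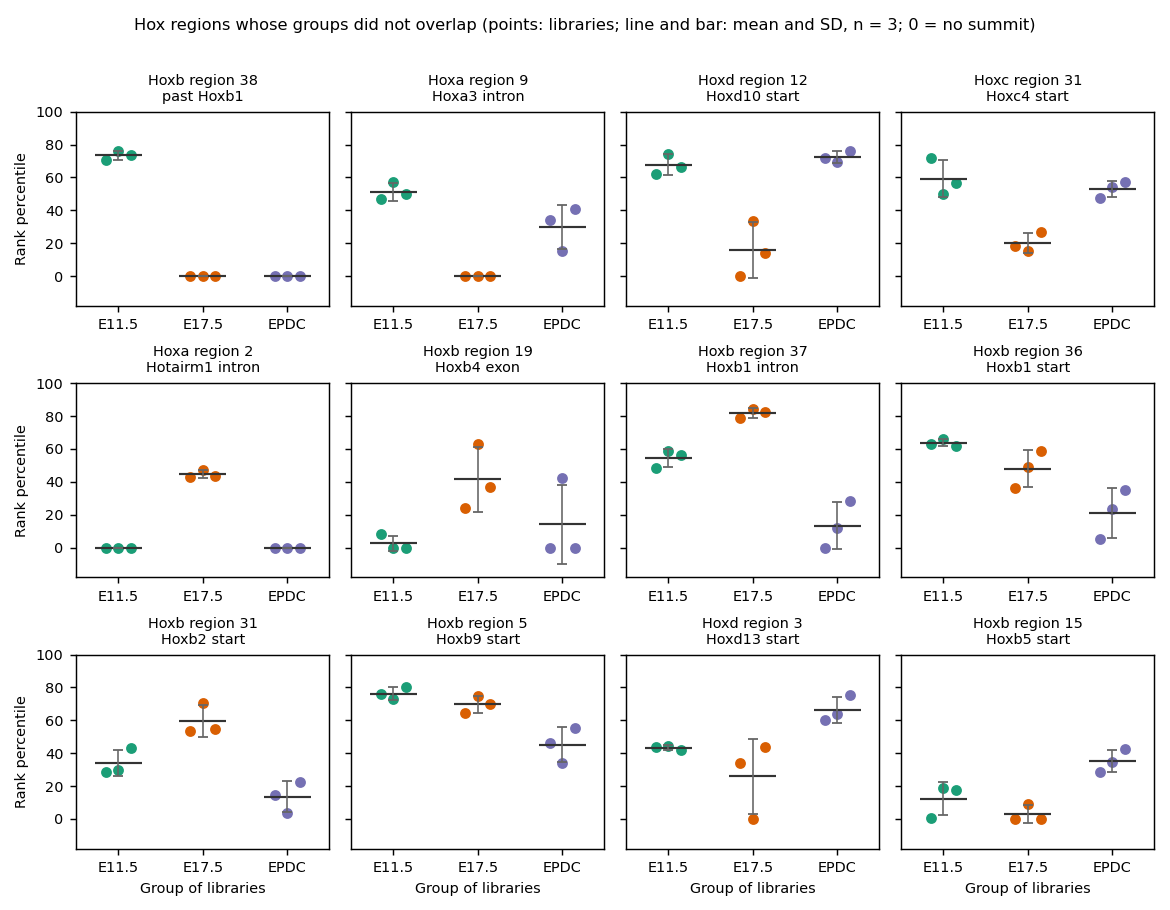
Rank percentile (0 to 100, 0 where no summit was called) of 12 Hox regions in E11.5 epicardium, E17.5 epicardium and EPDC libraries; points are libraries, and the line and bar give the mean and SD (n = 3). Hoxb region 38 stands between 70.5 and 76.0 at E11.5 and at 0 elsewhere, Hoxa region 2 is called at E17.5 alone, and Hoxb regions 36 and 37 are lowest in EPDCs.

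Of the 37 promoters tested, 2 were higher at E17.5 (5.41%, against 11.3% of all) and 6 lower (16.2%, against 25.9%). The counts moved with the library left out, and so did the shares of all promoters. Higher were 4 without E11.5 replicate 1 (against 13.97%), 4 without E11.5 replicate 2 (15.8%) and 7 without E17.5 replicate 1 (20.3%). Lower were 10 without E11.5 replicate 1 (33.5%) and 12 without E17.5 replicate 2 (35.3%). With equal numbers of summits 7 were higher and 3 lower, against 24.4% and 15.9% of all. By fold enrichment it was 7 and 5 (against 12.8% and 25.7%), and on the depth-normalized score 6 and 5 (against 33.8% and 12.2%). The lowest adjusted p was 0.269, and none could reach an unadjusted 0.05.

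*Hoxa7*, a central gene of the axial skeleton, had 65.3, 69.1 and 65.4 at E11.5, against 77.1, 78.7 and 77.9 at E17.5. Read at its single start, its groups overlapped with a difference of −11.9. *Hoxb6* had 49.6, 32.5 and 41.2 at E11.5, against 63.5, 68.2 and 60.7 at E17.5. The E17.5 libraries were above the others in both genes.

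The 6 lower promoters were those of *Hoxd10* and *Hoxc4*, with the summits given above, *Hoxb1*, *Hoxd12*, *Hoxa9* and *Hoxb4*. The *Hoxd12* promoter, of a posterior limb gene, had 23.4, 2.13 and 20.2 at E11.5 and 0 in all E17.5 libraries. The *Hoxa9* promoter had 18.2, 10.02 and 7.33 at E11.5 and likewise 0 at E17.5. These are weak summits. That of *Hoxd12* overlapped between stages under a stricter threshold, with equal numbers of summits and with 1 kb on each side. At the single start of *Hoxa9* the value was 0 in all E11.5 and E17.5 libraries, so the lower call was not made there.

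At *Hoxb1* neighbouring summits differed between stages in opposite directions. The promoter summit, Hoxb region 36 (101 bp before a start, in coding sequence of the longer transcript), had 63.2, 66.0 and 61.9 at E11.5, against 36.5, 48.7 and 58.9 at E17.5. Hoxb region 37, inside the gene, was higher at E17.5, as given above. The direction for the promoter thus depended on its width: with 1 kb on each side it was 18.2 higher at E17.5, and by interval overlap 19.6 higher. It also overlapped between stages with equal numbers of summits and on the depth-normalized score.

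The comparison of EPDCs with epicardium, 3 libraries against 6, asked how the clusters differed between cells in the sheet and those that had left it. Few Hox regions separated them. Of 148, 4 were higher in EPDCs with no overlap (2.70%, against 9.36% of all regions) and 5 lower (3.38%, against 8.09%), and 4 of those 5 lay in Hoxb. The higher count was 10 without EPDC E12.5 sample 1 and 7 without EPDC E13.5 sample 1, against 17.02% and 10.9% of all regions. The lower count was 11 without E17.5 replicate 1 and 12 without EPDC E13.5 sample 2, against 10.4% and 12.4%. On the depth-normalized score 5 were higher and 14 lower, against 10.01% and 9.80% of all. By exact permutation 18 of the 148 had an unadjusted p under 0.05 and 0 an adjusted one (lowest 0.0864), and over all regions 39574 and 0. A summit in all EPDC and no epicardial library was found in 1 Hox region (against 3.23% of all), and the reverse in 0 (against 2.12%).

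The regions lower in EPDCs lay at *Hoxb1*, *Hoxb2*, *Hoxb9* and *Hoxc13*. The *Hoxb1* intron, Hoxb region 37, had 0, 18 and 47 fragments at the summit in EPDCs against 40 to 132 in the epicardium. The library with 47 had the highest genome background of all 9. The difference in percentile was −54.9 (exact permutation p = 0.0119, the smallest possible, adjusted 0.0864). Hoxb region 36 beside it had 4.89, 23.4 and 34.9 in EPDCs, a difference of −34.8 with the same p, and its groups overlapped under the stricter threshold and by fold enrichment.

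Hoxb region 31 at *Hoxb2* differed by −33.3 (exact permutation p = 0.0238, adjusted 0.134), and the groups overlapped with equal numbers of summits, by fold enrichment and by interval overlap. Hoxb region 5 at *Hoxb9*, a posterior gene of the thorax, had 46.4, 34.3 and 55.2 in EPDCs. The epicardial values were 75.9, 72.8 and 80.3 at E11.5, against 64.4, 74.9 and 69.9 at E17.5, so the EPDC values were below all 6.

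The local background around Hox summits, a measure chosen after the data had been seen, had a lower mean in EPDCs than in the epicardium in each of the 4 clusters, and the difference passed the test in Hoxb. There it was 2.62 ± 0.0188 times the genome background at E11.5, 2.78 ± 0.285 at E17.5 and 1.70 ± 0.491 in EPDCs (exact permutation p = 0.0119, adjusted 0.0476 over 4 clusters). The same ratio over all summits of a library was 1.72 ± 0.177 in the epicardium and 1.24 ± 0.181 in EPDCs (p = 0.0119, exact permutation, adjusted 0.0476 over 12 measures). The differences in this ratio between EPDCs and epicardium were −0.528 in Hoxa (exact permutation p = 0.0357, adjusted 0.0714), −0.260 in Hoxc and −0.298 in Hoxd (both adjusted 0.167, exact permutation). Over the Hox summits of all clusters it was −0.406 (exact permutation p = 0.0238, adjusted 0.0571). Whether Hoxb differed in this from the other clusters or from other chromatin was not tested.

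The regions higher in EPDCs were in 2 cases very weak. Hoxd region 3, 171 bp past the start of *Hoxd13*, a gene of digits and genitalia, had 43.9, 44.4 and 41.8 at E11.5, 33.8, 0 and 44.0 at E17.5, and 60.4, 63.8 and 75.3 in EPDCs. Hoxb region 15, in *Hoxb5* coding sequence, had 0.775, 18.8 and 17.4, then 0, 9.06 and 0, and 28.8, 34.5 and 42.3 in EPDCs. In both the EPDC libraries were the high ones.

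Hoxa region 34, in *Hoxa11* coding sequence, stood at 0.829, 1.74 and 12.4 in EPDCs and at 0 in the epicardium but for 0.303 in E17.5 replicate 3. Hoxc region 24, in the *Hoxc6* UTR, had 4.89, 3.31 and 2.55 in EPDCs and 0 elsewhere. Neither difference held under a stricter threshold. The call was lost in 4 of 14 alternatives for Hoxa region 34 and in 2 of 14 for Hoxc region 24.

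Of the 37 promoters 1 was higher in EPDCs, that of *Hoxd13* (against 6.72% of all), and 2 were lower, those of *Hoxb1* and *Hoxb9* (5.41%, against 9.75%). The *Hoxd13* promoter had 43.9, 44.4 and 41.8 at E11.5, 33.8, 52.5 and 44.0 at E17.5 and the EPDC values of Hoxd region 3. Its call was lost in 1 of 16 alternatives. By exact permutation 6 promoters had an unadjusted p under 0.05 and 0 an adjusted one (lowest 0.0905), and over all 15789 promoters tested 3922 and 0. The higher count was 2 without E11.5 replicate 1, E11.5 replicate 2 or EPDC E13.5 sample 1 (against 7.58%, 7.87% and 8.32% of all) and 4 without EPDC E12.5 sample 1 (10.7%). The lower count was 4 without EPDC E13.5 sample 2 (23.4%). The *Hoxb1* promoter overlapped between populations under the stricter threshold, by fold enrichment and at its single start.

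Most genes that act with and on the Hox clusters ranked above the Hox median of 42.4, where all protein-coding promoters called in every library had a median of 92.1. All 9 TALE cofactors were called in all 9 libraries with a median percentile of 94.1, *Pbx2* standing at 52.5. None was higher at E17.5 and 2 (*Pbx4* and *Meis3*) were lower with no overlap. Of 15 upstream regulators 13 were called in all 9 libraries (median over the 15, 89.0), against 62.5% of all promoters. The caudal factors *Cdx1*, *Cdx2* and *Cdx4* were below the Hox median, at means of 11.97, 24.9 and 1.85, and *Cdx4* was at 0 in every E17.5 and EPDC library. By stage, *Aldh1a2*, *Rarg* and *Kmt2a* were higher at E17.5 and *Cdx2*, *Cdx4*, *Rara*, *Rarb* and *Suz12* lower. *Gdf11* and *Bmi1* were higher and *Aldh1a2* lower in EPDCs. These shares stand against the same 11.3%, 25.9%, 6.72% and 9.75% of all promoters.

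*Cdx2*, a caudal factor that acts on posterior Hox genes, had 44.9, 56.5 and 47.3 at E11.5, 10.8, 0 and 0 at E17.5, and 0, 23.4 and 40.8 in EPDCs. *Aldh1a2* had 94.8, 92.5 and 94.0 at E11.5, 96.0, 97.3 and 96.7 at E17.5, and 85.9, 86.3 and 91.6 in EPDCs. *Rarb*, a retinoic acid receptor that is itself a retinoic acid target, had 92.6, 92.1 and 93.9, then 87.8, 90.6 and 88.0, and 92.5, 95.4 and 96.3 in EPDCs. The E17.5 libraries were high for the enzyme and low for the receptor.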

How the data were processed

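Reads were aligned to mm10 by the authors with the nf-core atacseq pipeline, and MACS2 2.2.9.1 called peaks from paired fragments for each list, with a q-value limit of 0.01 and all summits of a peak kept. The deposited lists give −log10 p and −log10 q, which the authors' caller computed against local background, and the fold enrichment over it. Values were not scaled from one library to another. The 10 samples gave 9 lists, since technical replicates of one EPDC sample share a list.

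Summits (start plus offset) on chromosomes 1 to 19, X and Y were ranked by −log10 p within each library. Windows of 250 bp on each side of a summit were merged into regions by taking the highest depth-normalized score (−log10 p over its sum in the library) first and dropping windows that overlapped it. Starts and gene models came from GENCODE M21 and sequence from GRCm38.p6. Groups were compared by exact two-sided permutation of the difference in means, over 20 assignments for the stages and 84 for EPDCs against all epicardium, with Benjamini-Hochberg adjustment over all regions or promoters. Fragments at a summit were solved from fold enrichment and p under a Poisson model. The steps were tested on simulated data. Python 3.11.15, numpy 2.4.6, pandas 2.3.3 and scipy 1.17.1 were used.

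The named regions were the strongest of each cluster, up to 4 in each direction of each comparison with no overlap of the groups and the largest difference in means, the promoters without overlap chosen likewise, and the longest stretches without a summit. Regions lost or gained entirely between stages and the *Hoxb3* region were named after their values were seen. The member genes, lists and motifs were chosen with earlier results of these data known. Alternatives were a −log10 q of at least 5, equal numbers of summits (94909), other flanks, windows and promoter widths, ranking by fold enrichment, a depth-normalized score as log2(score + 1), interval overlap, omission of each library, and a block for the replicate number. Single starts, and the library measures other than the Hox share of summits with their alternatives, were added after seeing the data. The lists give no reads, so no count model was run. Some items of the lists are not reported here.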

Additional observations from a re-analysis of the deposited data

How the results depend on the processing

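A percentile depends on how many weak summits a list holds, and the lists differ in depth. With only summits at a −log10 q of 5 or more, the stage difference in the Hox share of summits was 0.259, 2 regions were higher and 3 lower in EPDCs (against 9.91% and 7.68% of all), 1 promoter was lower in EPDCs (8.26%), and the difference at or below percentile 25 was 3.92. With equal numbers of summits the share differences were 0.527 and −0.123, the difference at or below percentile 25 was 2.47, 17 regions were higher and 5 lower at E17.5, as were 7 and 3 promoters, and 2 promoters were higher in EPDCs (9.56%). Ranking by fold enrichment gave 17 regions lower at E17.5, 7 promoters higher at E17.5, and 2 higher and 1 lower in EPDCs (12.4% and 4.24%). The depth-normalized score gave 14 regions lower in EPDCs, 6 promoters higher at E17.5 and 2 higher in EPDCs (10.53%). Windows of 500 bp on each side gave 3 regions lower in EPDCs (9%), promoters of 1 kb on each side gave 5 higher at E17.5 (11.1%), a flank of 1 kb gave a share difference of 0.0264 between stages, and interval overlap gave 2 promoters higher in EPDCs (7.32%). Single starts, added after seeing the data, gave 1 promoter higher at E17.5 and 1 lower in EPDCs, and the *Hoxa7* difference became −11.9. They were read for Hox genes alone, so no share of all promoters stands beside these counts. Interval overlap turned Hoxb region 19 to −10.4, Hoxb region 31 to −2.41 and the *Hoxb1* promoter to 19.6, and the 1 kb promoter of *Hoxb1* gave 18.2. The cause of these moves was not tested.

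Leaving out each library in turn gave a share difference of −0.387 to 0.471 between stages and 0.543 to 1.16 for EPDCs, and a difference at or below percentile 25 of 9.54 to 13.4. At E17.5 it gave 11 to 23 regions higher and 26 to 35 lower (35 without E11.5 replicate 2 or E17.5 replicate 2, against 35.8% and 37.9% of all), and 2 to 7 promoters higher and 6 to 12 lower. In EPDCs it gave 4 to 10 regions higher and 5 to 12 lower, and 1 to 4 promoters higher and 2 to 4 lower.

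Samples of the 2 stages with the same replicate number did not deviate together in every pair (correlations of 0.0332, 0.0907 and −0.0525 over 57768 regions), so the numbers were not taken to pair them. With the replicate number as a block 4 promoters were higher and 11 lower at E17.5 (against 17.3% and 35.5% of all), 13 regions were higher and 34 lower (15.3% and 36.4%), and the share difference was −0.0709 with an exact p of 1. Of the alternatives for single regions and promoters, 301 kept direction and call, 20 lost the call and 5 reversed.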

Other observations

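The local background around Hox summits, read against that of all summits of the same library, stood at 1.28, 1.25 and 1.13 at E11.5, 0.799, 0.922 and 0.932 at E17.5, and 0.988, 1.04 and 1.26 in EPDCs. The stages did not overlap (exact permutation p = 0.1, the smallest that 3 against 3 allows, adjusted 0.3 over 12 measures). The share of the Hox stretches covered by peaks was likewise 11.99 ± 0.7003% at E11.5 and 9.37 ± 1.75% at E17.5 (exact permutation p = 0.1, adjusted 0.3). The measure of local background was chosen after the data had been seen.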
